A study of Mus musculus with 12 samples.

Results

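The conjugation enzymes of liver described here are UDP-glucuronosyltransferase (Ugt), sulfotransferase (Sult) and glutathione S-transferase (Gst) genes, compared between Lcorl knockout (KO) and wild-type (WT) mice. They are the rows of the expression table whose symbol is that of a Ugt1, Ugt2 or Ugt3 gene, a Sult1 to Sult6 gene or a Gst gene with a class letter and a number, and whose mean over the 12 livers was at least 10 normalized counts. Genotype did not enter the rule, though Ugt2b37 reached the mean through the WT livers alone. Of 17714 gene rows 58 had such a symbol, and 47 reached the mean: 17 Ugt, 12 Sult and 18 Gst genes. RNA came from the frozen livers of 12 female mice killed at 3 weeks of age, when they were weaned, 6 of them Lcorl KO and 6 WT. The KO is global and not confined to liver, and the sources used here do not give the strain, the allele or the litters. Each library carries its own animal number, so the 12 livers are taken as separate mice and numbered KO 1 to KO 6 and WT 1 to WT 6. A normalized count is the number of reads assigned to a gene divided by a factor for the library, and 1 read was worth 0.85 to 1.27 of them. Just inside the limit lay Gstp2 with a mean of 26.6 and Ugt2b37 with a mean of 26.2. Just outside lay Gsto2 with a mean of 4.28, Gsta1 with 3.36, Sult2a7 with 2.74, Ugt2b38 with 2.24 and Sult3a1 with 1.92.

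Liver detoxifies hormones, bilirubin, bile acids and drugs largely by conjugation, in which an enzyme couples a polar group to the compound so that it can be excreted. UDP-glucuronosyltransferases (Ugt genes) of the endoplasmic reticulum transfer glucuronic acid, cytosolic sulfotransferases (Sult genes) transfer sulfate, and glutathione S-transferases (Gst genes) add the tripeptide glutathione to reactive compounds. Most members are paralogs that lie side by side in gene clusters. Many members respond to the nuclear receptors CAR and PXR, to the aryl hydrocarbon receptor (AhR) and to the oxidative stress factor NRF2, and several change with age and sex hormones in mice.

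Libraries held 27692285 to 31296485 reads assigned to genes in KO and 21769795 to 28655120 in WT. Lcorl itself was at 0 to 2.83 normalized counts in KO livers and 234 to 308 in WT livers. Hepatocyte markers summed to 3337350 to 4120540 in KO livers and 3745710 to 4041940 in WT livers, and 0 of 9 tested differed (limma; 0 at an unadjusted p under 0.05, 0 by edgeR and 0 by DESeq2). WT 6 alone held more than 1 normalized count of the fat gene Adipoq (53.4), and KO 2 alone held the pancreatic gene Reg1 (126). Pancreatic markers summed to 173 to 468 in KO livers and 319.8 to 558 in WT livers; 1 of 3 tested, the elastase gene Cela1, fell. Stellate cell markers summed to 11499 to 23008 in KO livers and 18760 to 26491 in WT livers, and 1 of 8 fell, the matrix gene Lum, with 4 at an unadjusted p under 0.05, 0 by edgeR and 2 by DESeq2. Erythroid markers summed to 8012 to 27624 in KO livers and 9327 to 48667 in WT livers, with 0 of 7 past the threshold in limma, 3 at an unadjusted p under 0.05 and 0 by edgeR or DESeq2. Of the other lists, kidney and intestine markers had 1 rise among 4 tested, Mep1a, whose adjusted p was 0.139 with the block for animal numbers described below, while adipocyte, cholangiocyte, Kupffer cell and endothelial markers had 0 calls by limma, edgeR and DESeq2, with 0 of 5, 2 of 7, 1 of 7 and 2 of 8 at an unadjusted p under 0.05. Of all genes tested 4.43% passed in limma, 4.1% by edgeR and 9.73% by DESeq2, and 23.4% stood at an unadjusted p under 0.05. The part of such cells in the differences below was not tested, and in whole liver fewer cells of a type and less RNA per cell cannot be told apart.

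Among the 47 genes, 5 fell and 1 rose in KO livers, and 41 did not pass the test (limma on log2(normalized count + 1), p-values adjusted over 13569 genes, threshold 0.05). Of all genes tested 4.43% passed, 1.75% as rises and 2.68% as falls. The falls were Ugt2b1, Ugt2b5, Gstm3, Gstm4 and Sult5a1, and the rise was Sult1c2. At an unadjusted p under 0.05 stood 19 of the 47 genes, where 23.4% of all genes did. The median log2 fold change was −0.0096 over the 47 genes and 0.0075 over all genes tested. By family, the medians were −0.037 for Ugt, 0.33 for Sult and −0.073 for Gst. The Ugt1a rows hold largely the same reads, as described below, and so weigh on these medians as if they were separate genes. Without the Ugt1a rows the median was −0.065 over 39 genes and −0.16 over the 9 Ugt genes left. Of those 39 genes 15.4% passed, against 12.8% of the 47. KO and WT ranges were apart for 2 of the 47 genes, Ugt2b1 and Ugt2b5, against 2.96% of all genes. Called members numbered 6 by edgeR and 11 by DESeq2, against backgrounds of 4.1% and 9.73% of tested genes, and 10 in the authors' deposited table, against 9.46%. Each of these counts, and the 19 at an unadjusted p under 0.05, includes Ugt2b37, which reached the mean of 10 through WT alone. So do the medians over the 47 genes, over the 39 genes and over the Ugt genes.

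**Figure D1:**
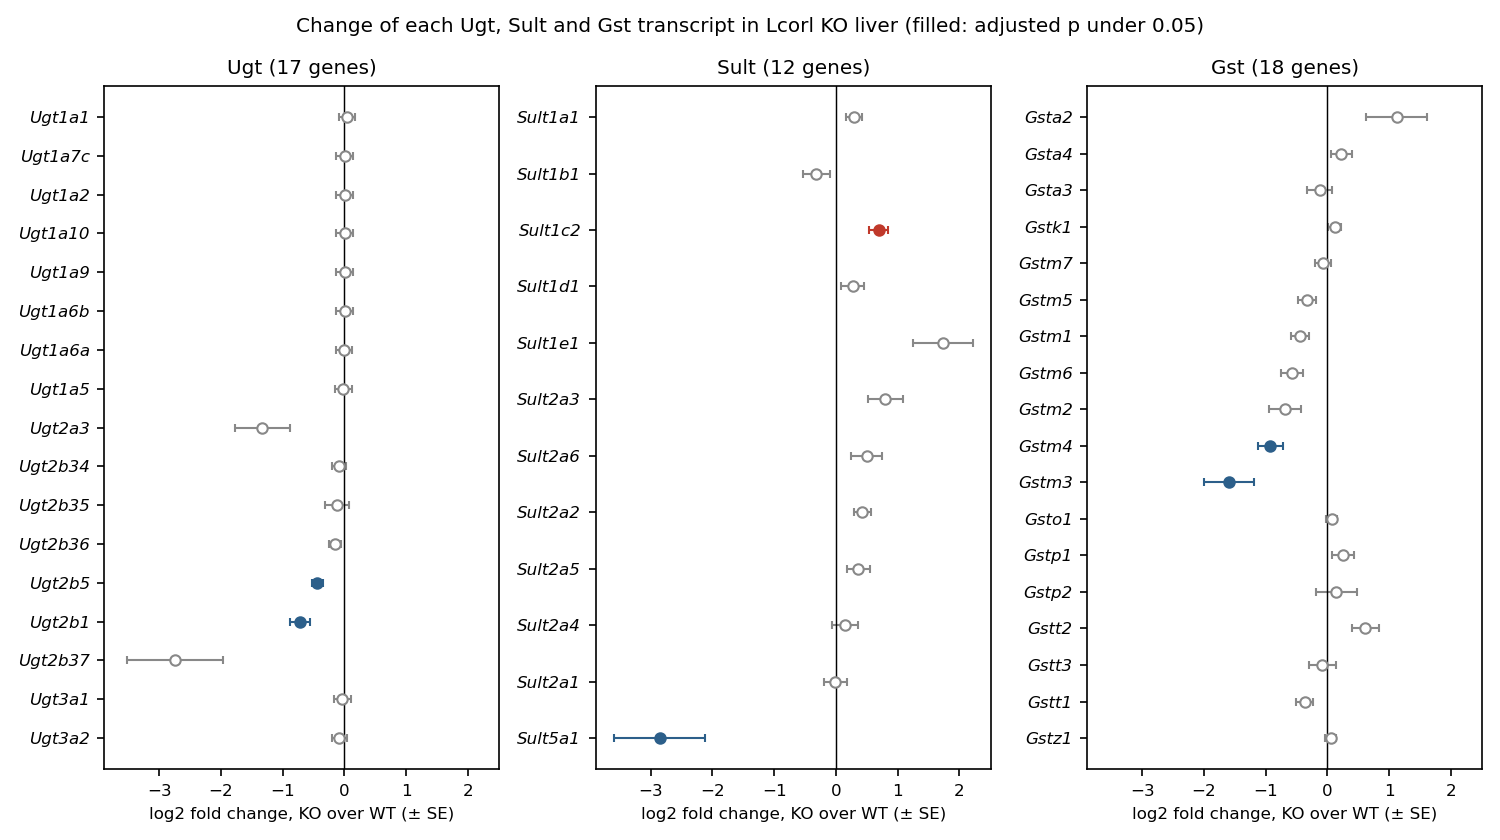
Log2 fold change of each gene, KO over WT, on the horizontal axis with its standard error, in 1 panel per family with genes grouped by subfamily; filled symbols passed the adjusted threshold of 0.05. All 7 Gstm genes and all 9 Ugt genes outside Ugt1a lie left of 0, 5 of 6 Sult2a genes lie right of it, and the 8 Ugt1a rows sit at 0.

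The count of calls depended on single livers, over all genes tested as well as among the 47. Over all genes it ran from 224 to 933 without 1 liver, against 601 with every liver. Whether the 47 genes depended on single livers more than other genes was not tested. Among the 47, leaving out 1 liver at a time gave 11 called genes without KO 6, 6 without WT 6 and 5 without KO 2, KO 3 or KO 5. It gave 4 without WT 4, 3 without KO 1, 2 without WT 2 and 1 without KO 4, WT 3 or WT 5. Without WT 1 it gave 0 calls by limma, with 18 of the 47 still at an unadjusted p under 0.05. The animal numbers fall into 4 runs separated by gaps of at least 10: KO 1 and WT 1 in the first, WT 2 and WT 3 in the second, KO 2, KO 3, KO 4 and WT 4 in the third, and KO 5, KO 6, WT 5 and WT 6 in the fourth. The sources used here do not say what a run stands for. With the runs as a block, 1 of the 47 genes passed, Sult1c2, against 1.16% of all genes. Differences within runs are KO mean minus WT mean on the log2(normalized count + 1) scale.

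**Figure D2:**
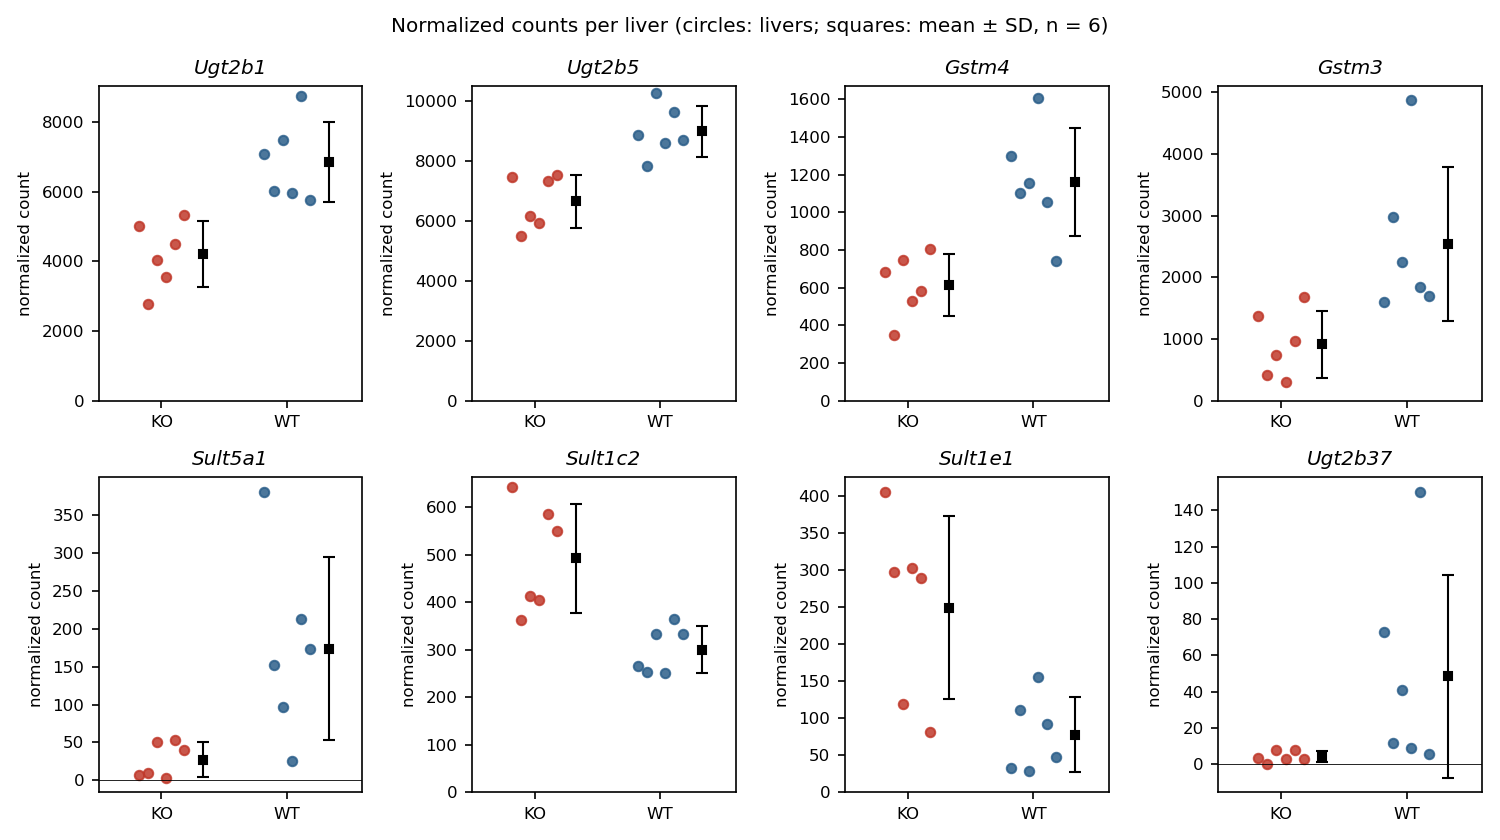
Normalized counts (vertical axes, from 0 upwards) of the 6 genes past the threshold and of Sult1e1 and Ugt2b37, which were not, with 1 circle per liver, KO left of WT, and squares for the mean with SD (n = 6 each). Ugt2b1 and Ugt2b5 have all 6 KO livers below all 6 WT livers; the WT livers of Ugt2b37 spread from 5.72 to 150.2.

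The Ugt2b enzymes glucuronidate steroids, bile acids and many drugs, and all 6 of their genes were lower in KO livers, 2 of them past the threshold. The median log2 fold change was −0.30; of all genes tested, 48.2% lay below 0. Ugt2b1 fell 1.65-fold. It lay at 2778, 4271 and 5337 normalized counts in KO livers, against 5774, 6565 and 8735 in WT livers (lowest, median and highest; log2 fold change −0.72, SE 0.15, adjusted p = 0.0234). Each KO liver was below each WT liver. Within runs its difference was −0.50 in the first run, −0.80 in the third and −0.54 in the fourth, and with the runs as a block the adjusted p was 0.0848. Ugt2b5 fell 1.35-fold and lay at 5517, 6756 and 7551 normalized counts in KO livers, against 7839, 8800 and 10269 in WT livers (log2 fold change −0.44, SE 0.094, adjusted p = 0.0234). Again the groups did not overlap. Its adjusted p was 0.0936 with the block. For both genes the call ended without KO 4, WT 1, WT 3 or WT 5, with adjusted p up to 0.0591 and 0.0594. On GRCm38, Ugt2b1 spans chr5:86916638-86926530 (minus strand) and Ugt2b5 chr5:87124960-87140318 (minus strand). No 50-base word of the Ugt2b1 exons occurs in the exons of another gene, while 41.7% of those of Ugt2b5 do, most of them in Ugt2b38, so the reads of Ugt2b5 are less certain.

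Ugt2b37 had the lowest level of the Ugt genes here and the steepest log2 fold change of the Ugt rows as deposited. It is named because of its values. With a mean of 3.99 normalized counts in KO livers and 48.4 in WT livers, it entered the tests only through WT, so they are no support for a difference. It lay at 0, 3.00 and 7.65 normalized counts in KO livers, against 5.72, 26.3 and 150.2 in WT livers (log2 fold change −2.74, SE 0.77, adjusted p = 0.0611). WT 6 lay within the KO range, and the other 5 WT livers were above all KO livers but far apart from each other. The difference did not pass in limma, passed in edgeR (adjusted p = 0.0373) and had an adjusted p of 0.000279 in the authors' deposited table. Ugt2b38, under the limit of 10, lay at 0, 0.425 and 1.04 normalized counts in KO livers, against 0, 2.44 and 9.75 in WT livers. The other genes of the subfamily did not pass, with log2 fold changes of −0.093 for Ugt2b34 (adjusted p = 0.687), −0.12 for Ugt2b35 (adjusted p = 0.753) and −0.16 for Ugt2b36 (adjusted p = 0.369). Per kilobase of exon Ugt2b36 was the most abundant Ugt2 gene, at 7551 normalized counts, followed by Ugt2b5 at 4215 and Ugt2b34 at 3046. The summed Ugt2b level was 32162, 41835 and 49972 normalized counts in KO livers, against 43620, 49599 and 54446 in WT livers. Of the 6 KO livers 3 were below all WT livers in this sum.

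Ugt2b5, Ugt2b37 and Ugt2b38 also share sequence ahead of their start sites, shown here beside Ugt2b1, which fell and lacks the run. The 120 bases before each RefSeq start on the minus strand of GRCm38.p6 chromosome 5 are, with the 62-base run identical in the first 3 genes in capitals and the start at the right end:
Ugt2b5: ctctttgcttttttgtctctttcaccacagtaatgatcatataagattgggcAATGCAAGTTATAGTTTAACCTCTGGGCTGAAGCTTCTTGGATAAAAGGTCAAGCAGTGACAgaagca
Ugt2b37: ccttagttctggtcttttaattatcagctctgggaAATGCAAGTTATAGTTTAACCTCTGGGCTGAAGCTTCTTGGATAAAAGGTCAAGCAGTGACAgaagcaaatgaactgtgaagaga
Ugt2b38: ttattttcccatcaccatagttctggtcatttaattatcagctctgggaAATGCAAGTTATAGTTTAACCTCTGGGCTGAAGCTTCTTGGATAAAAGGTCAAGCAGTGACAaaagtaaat
Ugt2b1: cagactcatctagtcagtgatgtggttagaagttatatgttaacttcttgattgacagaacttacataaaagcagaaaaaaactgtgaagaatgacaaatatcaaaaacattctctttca
They lie at chr5:87140341-87140460 for Ugt2b5, chr5:87254789-87254908 for Ugt2b37, chr5:87424204-87424323 for Ugt2b38 and chr5:86926504-86926623 for Ugt2b1. The run ends 6 bases before the start of Ugt2b5, 23 before that of Ugt2b37 and 9 before that of Ugt2b38. Over the 300-base windows, identity to Ugt2b5 was 84.2% for Ugt2b38, 76.5% for Ugt2b37 and 52.6% for Ugt2b1. The sequences are a description of the cluster, and their part in the lower levels was not tested.

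Ugt2a3, whose human counterpart glucuronidates bile acids, lies in the same cluster beyond Ugt2b37. It lay at 302, 1197 and 2416 normalized counts in KO livers, against 1691, 2269 and 3218 in WT livers, and the difference did not pass (log2 fold change −1.33, SE 0.44, adjusted p = 0.0968). All KO livers but KO 6 were below every WT liver. Without KO 6 the adjusted p passed the threshold, the sole omission of 1 liver that made the call. The Ugt3a enzymes use other sugars than glucuronic acid. Ugt3a2 lay at 6307, 8024 and 10612 normalized counts in KO livers, against 7142, 8737 and 9151 in WT livers (log2 fold change −0.082, SE 0.13, adjusted p = 0.752). Ugt3a1 was scarcer and lay at 159, 206 and 284 normalized counts in KO livers, against 195, 220.3 and 234 in WT livers (log2 fold change −0.037, SE 0.14, adjusted p = 0.909). For both the KO range contained the WT range, and neither passed.

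The Ugt1a locus on chromosome 1 makes 8 enzymes in this table, each from its own first exon joined to the same 4 downstream exons. Ugt1a1 glucuronidates bilirubin, and the others act mainly on phenols, drugs and plant compounds. As deposited, the 8 rows were nearly alike, with log2 fold changes of −0.016 to 0.041 and 0 of 8 called by limma, edgeR or DESeq2, and 0 of 8 at an unadjusted p under 0.05. They are not 8 measurements: each row holds the reads of the shared exons again. The lowest of the 8 rows in a library, taken as the shared reads, averaged 26544 normalized counts, which is 80.4% of the mean of the highest row, Ugt1a1. The sum of the 8 rows averaged 220603 normalized counts, and counting the shared reads once leaves 34796. What a row holds above the shared reads comes from exon bases outside the 1311 common to all 8, which for most of the genes are those of the first exon. Ugt1a6a and Ugt1a7c have further exons, and Ugt1a7c shares 2170 exon bases with Ugt1a6a and 1444 with Ugt1a6b, so reads there can stand in both rows. This separation was added after the rows were seen to be alike.

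The joins of first exon and shared exon 2 show what the rows share and where they differ. The last 30 bases of the first exon are in lower case and the first 30 of exon 2, from chr1:88215044-88215073 on the plus strand of GRCm38, in capitals:
Ugt1a5: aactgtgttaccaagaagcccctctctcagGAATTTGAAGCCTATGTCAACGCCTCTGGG
Ugt1a2: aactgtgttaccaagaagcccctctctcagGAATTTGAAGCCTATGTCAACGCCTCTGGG
Ugt1a6a: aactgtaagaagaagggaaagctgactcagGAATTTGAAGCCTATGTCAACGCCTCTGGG
Ugt1a6b: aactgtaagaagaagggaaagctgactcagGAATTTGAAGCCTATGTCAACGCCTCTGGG
Ugt1a9: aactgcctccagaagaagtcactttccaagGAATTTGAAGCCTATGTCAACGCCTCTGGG
Ugt1a1: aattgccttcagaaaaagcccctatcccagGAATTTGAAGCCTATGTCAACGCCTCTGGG
Ugt1a5 and Ugt1a2 end their first exons with the same 30 bases, as do Ugt1a6a and Ugt1a6b. The first exon of Ugt1a5 has 892 bases, chr1:88166012-88166903, and that of Ugt1a1 has 913, chr1:88211959-88212871.

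Above the shared reads, the Ugt1a5 part fell 9.24-fold in KO livers, where its row as deposited did not pass (log2 fold change −0.016, adjusted p = 0.962). The part lay at 8.66, 44.6 and 269 normalized counts in KO livers, against 209.7, 429 and 567 in WT livers. All KO livers except KO 6 were below every WT liver, and KO 6, at 269, was above the 2 lowest WT livers. In the fit with the 8 rows so reduced, which called 604 genes, its log2 fold change was −3.21 (SE 0.68, adjusted p = 0.0228). The fold was smaller by count models, with log2 fold changes of −2.36 by edgeR and −2.38 by DESeq2, and the part averaged 77.0 normalized counts in KO livers and 400.5 in WT livers. The adjusted p was 0.0180 by DESeq2 but 0.0561 by edgeR and 0.111 with the runs as a block, neither past the threshold. Leaving out 1 liver gave adjusted p from 0.00261 to 0.0563. The call ended without KO 1 (0.0556), WT 1 (0.0541), WT 3 (0.0563) or WT 5 (0.0532). As a share of all reads above the shared part, Ugt1a5 took 0.129%, 0.514% and 2.59% in KO livers, against 2.60%, 5.11% and 8.01% in WT livers. All 6 KO shares were below all 6 WT shares, though the highest KO share, in KO 6, and the lowest WT share were nearly equal. Ugt1a5 was picked for its values.

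None of the other 4 Ugt1a parts with enough counts to test passed in the reduced limma fit. Ugt1a1 provided most of the reads above the shared part and lay at 5225, 7370 and 8504 normalized counts in KO livers, against 5098, 6238 and 6704 in WT livers (log2 fold change 0.20, adjusted p = 0.381). Ugt1a6a, an enzyme for small phenols, lay at 468, 574 and 739 normalized counts in KO livers, against 648, 731 and 1106 in WT livers (log2 fold change −0.42, adjusted p = 0.0939). Its groups overlapped, and DESeq2 called it (adjusted p = 0.0465). Its near copy Ugt1a6b lay at 594, 739 and 775 normalized counts in KO livers, against 577, 725 and 969.8 in WT livers (log2 fold change −0.040, adjusted p = 0.877). Ugt1a9 lay at 44.5, 91.2 and 138 normalized counts in KO livers, against 74.4, 109 and 217 in WT livers (log2 fold change −0.37, adjusted p = 0.484). Ugt1a7c reached at most 10.9 normalized counts in KO livers and 7.65 in WT livers, Ugt1a10 4.57 and 4.70, and Ugt1a2 0 and 0.976. Per kilobase of exon found in no other Ugt1a gene, the part was 7102 normalized counts for Ugt1a1, 776 for Ugt1a6b, 319.7 for Ugt1a6a, 268 for Ugt1a5 and 124 for Ugt1a9, over all 12 livers. For Ugt1a6a these are 2142 bases, more than its first exon of 954. The log2 fold change of the shared reads themselves was 0.0021 (adjusted p = 0.997). An antisense gene overlaps the exons of all 8 Ugt1a genes, by 922 bases in Ugt1a1, 534 in Ugt1a10 and 394 in each of the others. Whether reads were counted by strand is unknown. Some reads of Ugt1a1, and some of the shared reads, may therefore belong to the antisense gene.

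**Figure D3:**
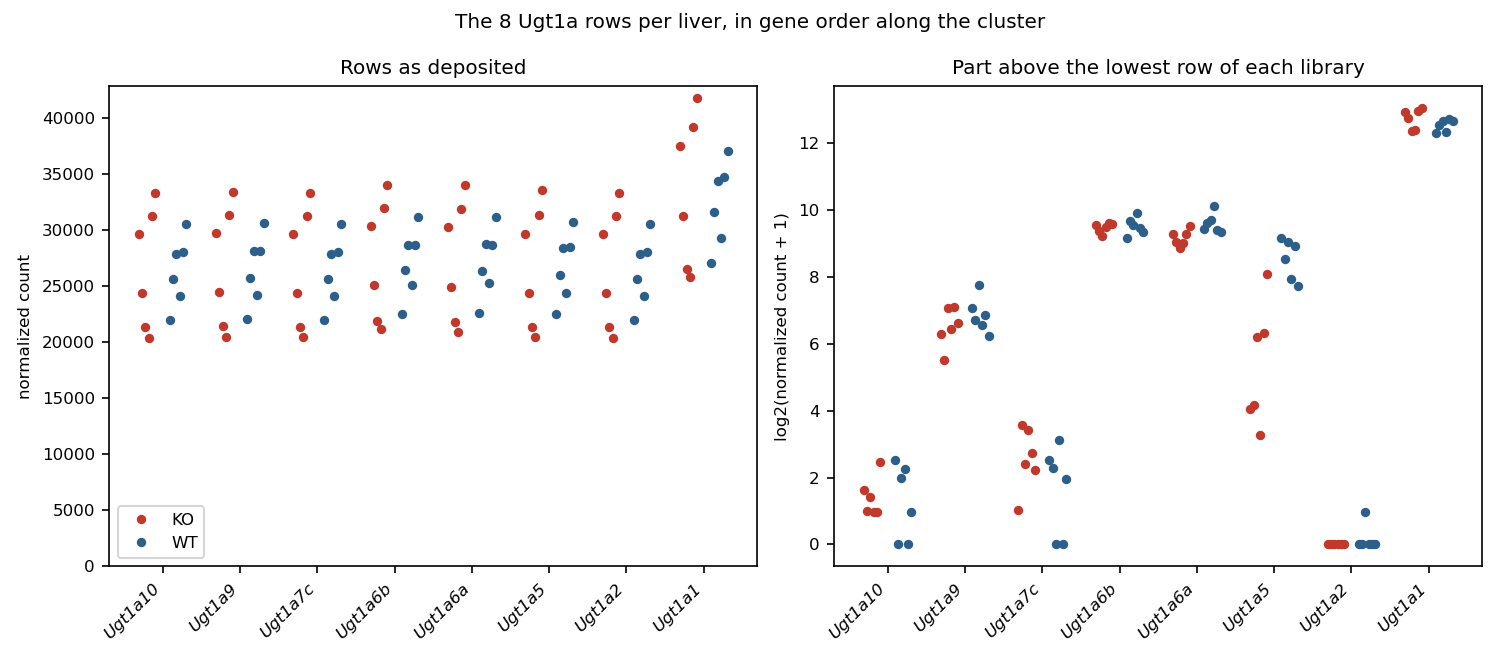
The 8 Ugt1a genes in their order along the cluster, with 1 point per liver and KO left of WT for each gene; the left panel gives normalized counts as deposited, and the right panel gives log2(normalized count + 1) of the part above the lowest row of each library. The rows as deposited overlap at every gene, and in the right panel 5 of 6 KO livers lie below all WT livers at Ugt1a5.

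Mu-class glutathione S-transferases detoxify epoxides and other electrophiles, and all 7 Gstm genes of the chromosome 3 cluster were lower in KO livers. Their median log2 fold change was −0.57, and of all genes tested 48.2% lay below 0. Past the threshold 2 of 7 fell, Gstm3 and Gstm4, against 2.68% of all genes. At an unadjusted p under 0.05 stood 6, against 23.4%. edgeR called 1 of the 7 and DESeq2 3, against 4.1% and 9.73%. With the runs as a block 0 of the 7 passed, against 1.16%. Gstm3 fell 3.02-fold and lay at 306, 863 and 1688 normalized counts in KO livers, against 1606, 2049 and 4873 in WT livers (log2 fold change −1.60, SE 0.41, adjusted p = 0.0448). The groups overlapped through KO 6, the highest KO liver, and WT 1, the lowest WT liver. The call ended in edgeR (adjusted p = 0.0595), and without any 1 liver other than KO 6 or WT 6 (up to 0.0892). Without WT 6 and KO 2 together its adjusted p was 0.0599. Gstm4 fell 1.90-fold and lay at 350.4, 632 and 805 normalized counts in KO livers, against 741, 1129 and 1607 in WT livers (log2 fold change −0.92, SE 0.21, adjusted p = 0.0276). The KO and WT ranges overlapped through the lowest WT liver, WT 6. Its call ended without KO 4 or any 1 of WT 1 to WT 5 (up to 0.0681). On GRCm38, Gstm3 spans chr3:107963696-107969283 (minus strand) and Gstm4 chr3:108040408-108044894 (minus strand). No 50-base word of the Gstm4 exons occurs in another gene, against 28.8% of those of Gstm3.

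Gstm1 was the most abundant mu-class gene, at 19226 normalized counts per kilobase of exon. It lay at 18467, 21959 and 31111 normalized counts in KO livers, against 28908, 31076 and 42982 in WT livers, and its difference did not pass (log2 fold change −0.44, SE 0.15, adjusted p = 0.0961). In KO, 4 livers were below every WT liver, and WT 4 stood far above the other WT livers. Gstm6 lay at 798, 1208 and 1709 normalized counts in KO livers, against 1416, 1717 and 2201 in WT livers (log2 fold change −0.57, SE 0.18, adjusted p = 0.0851), with 5 KO livers below all WT livers. Gstm2 lay at 651, 1250 and 2245 normalized counts in KO livers, against 1730, 2014 and 2595 in WT livers (log2 fold change −0.68, SE 0.26, adjusted p = 0.141). Neither of them passed. Gstm5, the gene at the far end of the cluster, lay at 165, 297 and 337 normalized counts in KO livers, against 305, 352 and 379.9 in WT livers (log2 fold change −0.34, SE 0.15, adjusted p = 0.188), and its exons share 178 bases with an antisense gene. Gstm7 lay at 1791, 2077 and 2415 normalized counts in KO livers, against 1681, 2110 and 3218 in WT livers (log2 fold change −0.065, SE 0.13, adjusted p = 0.815), and its KO range was inside its WT range. Differences were large within the third run, which sets KO 2, KO 3 and KO 4 against WT 4 alone. For Gstm3 they were −0.23 in the first run, −3.42 in the third and −0.47 in the fourth. For Gstm1 they were 0.094 in the first run, −1.10 in the third and −0.20 in the fourth. With the runs as a block the adjusted p was 0.196 for Gstm3 and 0.126 for Gstm4. The summed Gstm level was 22995, 28347 and 39669 normalized counts in KO livers, against 36624, 40743 and 57779 in WT livers, and 4 KO livers were below all WT livers.

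**Figure D4:**
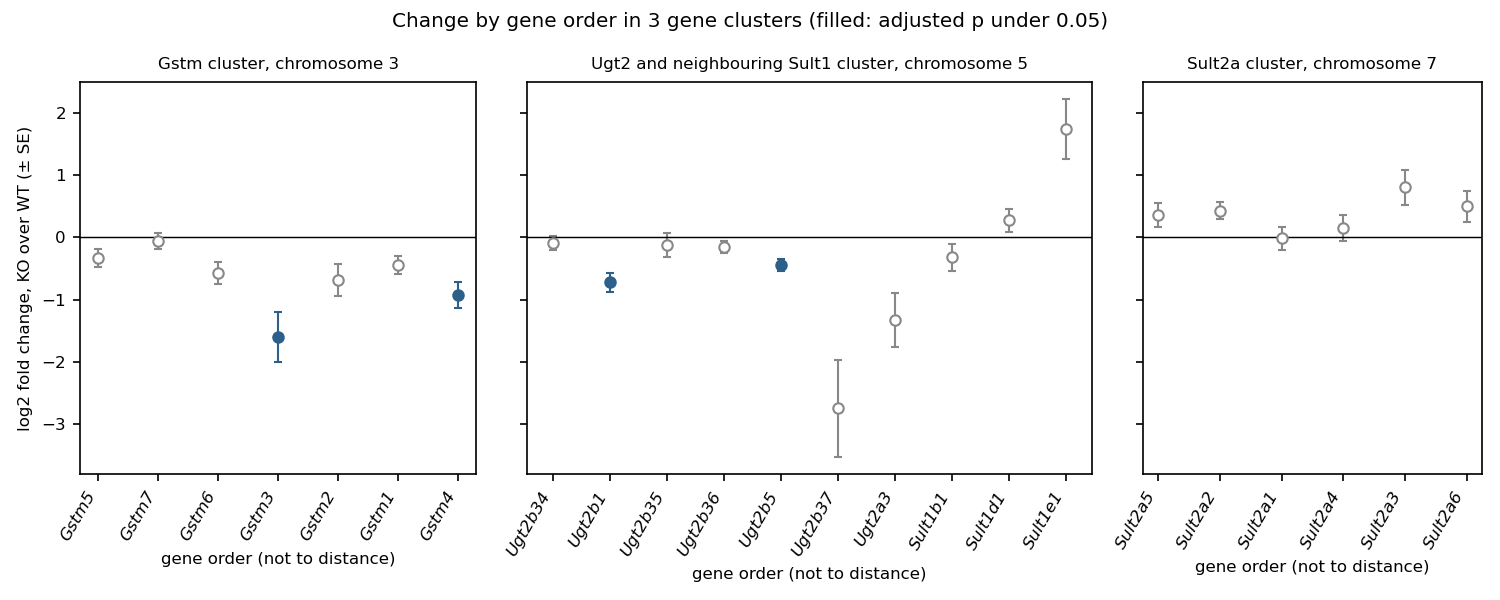
Log2 fold change, KO over WT, with its standard error (vertical axis) for genes in their order along 3 clusters (horizontal axis, not to distance); filled symbols passed the adjusted threshold of 0.05. In the chromosome 5 cluster the Ugt2 genes lie below 0 and Sult1e1, at the other end, lies at 1.73.

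Outside the mu class, 0 of 11 Gst genes passed in limma and 3 stood at an unadjusted p under 0.05, while edgeR called 0 and DESeq2 1. The shares of all genes tested were 4.43%, 23.4%, 4.1% and 9.73%, in that order. In KO livers 8 of the 11 were higher, as were 7029 of the 13569 genes tested. Of the alpha class, which conjugates lipid peroxidation products and aflatoxin epoxide, Gsta3 was the most abundant at 12100 normalized counts per kilobase. It lay at 31014, 53447 and 67616 normalized counts in KO livers, against 35116, 55876 and 63407 in WT livers (log2 fold change −0.13, SE 0.21, adjusted p = 0.768), with overlapping groups. Gsta2 lay at 199.9, 387 and 972 normalized counts in KO livers, against 99.9, 191 and 619 in WT livers (log2 fold change 1.12, SE 0.49, adjusted p = 0.191). It was highest in KO 1 and KO 4, the only KO livers above WT 4, and 49.8% of its 50-base words occur in another gene, most of them in Gsta1. Gsta4, which conjugates 4-hydroxynonenal, lay at 1151, 1406 and 2098 normalized counts in KO livers, against 932, 1274 and 1728 in WT livers (log2 fold change 0.23, SE 0.17, adjusted p = 0.440).

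The theta-class genes did not pass, and their log2 fold changes had both signs. Gstt1, whose enzyme acts on small halogenated compounds, lay at 4158, 6021 and 7534 normalized counts in KO livers, against 6448, 7357 and 7728 in WT livers (log2 fold change −0.37, SE 0.13, adjusted p = 0.122). Its 4 lowest KO livers were below all WT livers. Gstt2 lay at 667, 1314 and 1758 normalized counts in KO livers, against 582, 767 and 1177 in WT livers (log2 fold change 0.62, SE 0.22, adjusted p = 0.121). In KO, 4 livers were above all WT livers, and DESeq2 called it (adjusted p = 0.0446). Gstt3 had 1520 to 4462 normalized counts in KO livers and 2007 to 3191 in WT livers (log2 fold change −0.080, SE 0.21, adjusted p = 0.865). Gstz1, the maleylacetoacetate isomerase of tyrosine breakdown, had 19979 to 27767 normalized counts in KO livers and 18737 to 23927 in WT livers (log2 fold change 0.055, SE 0.092, adjusted p = 0.778). Gstp1 had 3866 to 5796 normalized counts in KO livers and 2706 to 6071 in WT livers (log2 fold change 0.25, SE 0.18, adjusted p = 0.415), and shares 33.7% of its 50-base words with other genes, all of them with Gstp2. Gstp2 itself had 11.4 to 45.1 normalized counts in KO livers and 15.3 to 42.1 in WT livers (log2 fold change 0.15, SE 0.33, adjusted p = 0.840). Gsto1, a thiol transferase, had 2270 to 3017 normalized counts in KO livers and 2138 to 2843 in WT livers (log2 fold change 0.069, SE 0.087, adjusted p = 0.685), and the mitochondrial and peroxisomal Gstk1 had 2603 to 4049 normalized counts in KO livers and 2871 to 3648 in WT livers (log2 fold change 0.12, SE 0.10, adjusted p = 0.547). In these last 6 genes the groups overlapped. All 18 Gst genes summed to 93765, 126818 and 158131 normalized counts in KO livers, against 110730, 138179 and 168995 in WT livers.

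Sulfotransferase genes were mostly higher in KO livers: 9 of 12 had a log2 fold change above 0, 1 of which passed, and 1 of the 3 others fell past the threshold. Of the 13569 genes tested 7029 lay above 0, and 1.75% rose and 2.68% fell past the threshold. Sult1c2, of the phenol sulfotransferase family, rose 1.62-fold. It lay at 362, 482 and 643 normalized counts in KO livers, against 252, 299 and 366 in WT livers (log2 fold change 0.70, SE 0.15, adjusted p = 0.0268). All KO livers but KO 2 were above every WT liver. Its adjusted p was 0.0185 with the runs as a block, where it was the 1 gene of the 47 to pass, and its differences were 1.27 in the first run, 0.64 in the third and 0.70 in the fourth. The call ended without KO 1, WT 1, WT 2 or WT 4 (up to 0.0611). Sult5a1, whose substrates are not established, fell 7.23-fold. It lay at 2.89, 25.0 and 52.8 normalized counts in KO livers, against 25.5, 163 and 381 in WT livers (log2 fold change −2.85, SE 0.74, adjusted p = 0.0474). The lowest WT liver, WT 4, was within the KO range, and the highest, WT 1, stood well above the other WT livers. Within runs its differences were −5.53 in the first run, −1.03 in the third and −2.04 in the fourth. The call held without KO 3, KO 5, KO 6 or WT 4, and ended without any other liver (up to 0.102). Without WT 6 and KO 2 together its adjusted p was 0.0871. On GRCm38, Sult1c2 spans chr17:53829637-53846339 (minus strand) and Sult5a1 chr8:123140192-123158315 (minus strand).

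Sult1e1, which inactivates estrogens by sulfation, had the largest positive log2 fold change of the 47 genes. It lay at 81.3, 293 and 406 normalized counts in KO livers, against 28.3, 70.2 and 155 in WT livers (log2 fold change 1.73, SE 0.48, adjusted p = 0.0589), a 3.32-fold difference that missed the threshold in limma and edgeR (adjusted p = 0.0560) and passed in DESeq2 (adjusted p = 0.0167). In KO, 4 livers were above all WT livers, while KO 3 and KO 6 lay among them. It passed when KO 6 or WT 4 was left out. Its neighbours in the cluster were Sult1d1, for catecholamines, and Sult1b1, for thyroid hormone and phenols. Sult1d1 lay at 8106, 12583 and 15526 normalized counts in KO livers, against 7105, 9868 and 13055 in WT livers (log2 fold change 0.27, SE 0.19, adjusted p = 0.413). Sult1b1 lay at 291, 687 and 785 normalized counts in KO livers, against 636, 739 and 815 in WT livers (log2 fold change −0.32, SE 0.22, adjusted p = 0.407), with KO 2 lowest. Sult1a1, the main phenol sulfotransferase of liver, lay at 16863, 22269 and 24443 normalized counts in KO livers, against 13264, 16822 and 20633 in WT livers (log2 fold change 0.30, SE 0.13, adjusted p = 0.182). Of its KO livers 4 were above all WT livers. No 50-base word of Sult1e1, Sult1d1 or Sult1b1 occurs in another gene.

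The Sult2a genes encode sulfotransferases for bile acids and hydroxysteroids, and 5 of 6 were higher in KO livers. Of the 13569 genes tested 7029 were higher. None of the 6 passed in limma, with 2 at an unadjusted p under 0.05, 0 by edgeR and 1 by DESeq2. The shares of all genes tested were 4.43%, 23.4%, 4.1% and 9.73%, in that order. The median log2 fold change was 0.40. Sult2a1 was the most abundant of the 47 genes per kilobase of exon, at 37430 normalized counts. It lay at 29468, 33413 and 57140 normalized counts in KO livers, against 24241, 39436 and 47572 in WT livers (log2 fold change −0.014, SE 0.19, adjusted p = 0.979), with groups that overlapped throughout. Sult2a2 lay at 6112, 7723 and 9868 normalized counts in KO livers, against 3980, 5801 and 6899 in WT livers (log2 fold change 0.43, SE 0.14, adjusted p = 0.0966), with 4 KO livers above all WT livers. DESeq2 called it (adjusted p = 0.0457). Sult2a3 lay at 545, 1013 and 1228 normalized counts in KO livers, against 245, 528 and 919 in WT livers (log2 fold change 0.80, SE 0.29, adjusted p = 0.118). Sult2a6 lay at 1390, 3726 and 4029 normalized counts in KO livers, against 1459, 2232 and 2849 in WT livers (log2 fold change 0.50, SE 0.25, adjusted p = 0.247), with 5 KO livers above all WT livers and KO 6 below them. Sult2a5 had 5808 to 10398 normalized counts in KO livers and 3923 to 9192 in WT livers (log2 fold change 0.37, SE 0.19, adjusted p = 0.278), and Sult2a4 had 305 to 773 normalized counts in KO livers and 366 to 661 in WT livers (log2 fold change 0.15, SE 0.21, adjusted p = 0.727). Their exons share from 6.63% (Sult2a6) to 62.1% (Sult2a2) of 50-base words with other genes, so reads may be divided among them. The summed Sult2a level was 49859, 53686 and 80366 normalized counts in KO livers, against 34213, 54991 and 67059 in WT livers. WT 1 was lowest with 34213, and its run partner KO 1 had 67858. Sult3a1, under the limit of 10, was at 0 in 5 KO livers and 1.83 normalized counts in the other, against 0.953 to 8.23 in WT livers.

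**Figure D5:**
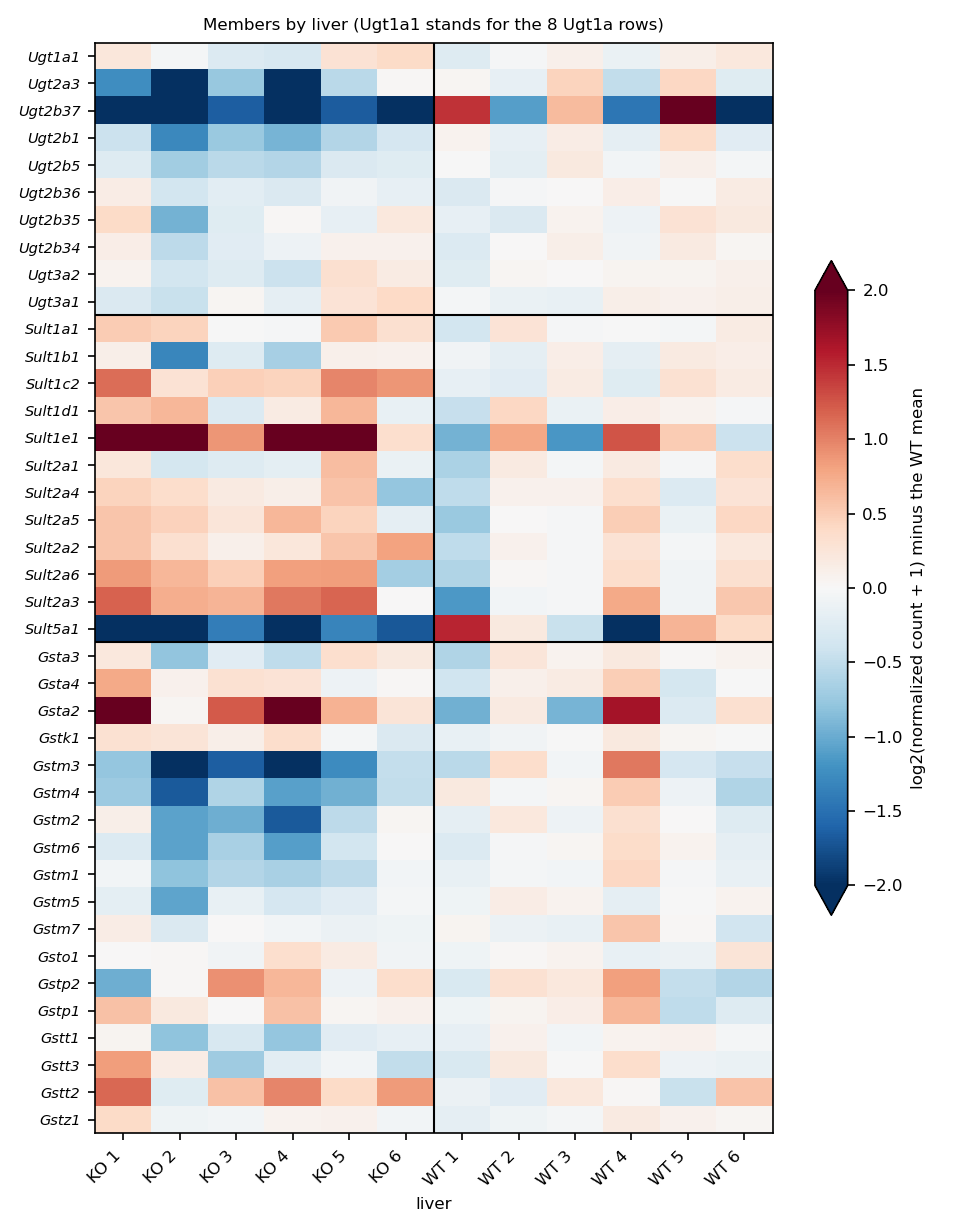
Log2(normalized count + 1) minus the WT mean, as color from −2 to 2, for each gene (rows, by family and subfamily) and liver (columns, KO left of WT), with Ugt1a1 standing for the 8 rows of its locus. Gstm1, Gstm2 and Gstm6 are lowest in KO 2, KO 3 and KO 4, and 4 of 6 Sult2a genes are lowest in WT 1.

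By family, with the shared Ugt1a reads counted once, the summed Ugt level was 71755, 86763 and 101677 normalized counts in KO livers, against 82428, 95838 and 103335 in WT livers. The KO mean was 91.1% of the WT mean. The summed Sult level was 76157, 87336 and 122029 normalized counts in KO livers, against 55951, 85491 and 97001 in WT livers, with a KO mean of 114% of WT. For Gst genes the KO mean was 90.0% of WT. Within Gst, the mu-class sum was 72.0% of WT and the alpha-class sum 94.7%. All 3 family sums overlapped between the groups, and long and abundant genes weigh most in them. Some members share start-site letters. In windows from 250 bases before to 50 after the RefSeq start (GRCm38.p6), matched for 41 of the 47 genes, GTTAAT, a short core of sites for the liver factor HNF1, occurred on either strand in 13 of 41 (31.7%), against 8.24% of 27025 genes. These were 6 Ugt, 6 Sult and 1 Gst gene. Ugt1a10, Ugt1a9, Ugt1a6a and Ugt1a1 among them are paralogs of 1 cluster, and Sult2a5, Sult2a4, Sult2a3 and Sult2a6 of another. Matches in such paralogs are not separate cases, and the 27025 genes were not limited to those expressed in liver. The antioxidant response core TGACNNNGC, known for NRF2, occurred in 3 of 41 (7.32%; Gsta3, Gstm5 and Gstm7), against 14.0% of genes. The AhR core GCGTG occurred in 7 of 41 (17.1%), against 35.2%. Ugt1a6b, Gstt2, Ugt3a2, Sult2a2, Sult2a1 and Gsta4 had no matched window. A match is a run of letters and not a bound site.

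Genes that supply these enzymes were read beside all genes tested. Of all genes tested 4.43% passed in limma, 4.1% by edgeR and 9.73% by DESeq2, and 23.4% stood at an unadjusted p under 0.05. Of 12 genes for the donors of glucuronic acid and sulfate, 0 passed in limma, with 3 at an unadjusted p under 0.05, 0 by edgeR and 1 by DESeq2, and the median log2 fold change was −0.16. The smallest p was that of Papss2, which makes the activated sulfate PAPS and lay at 4396, 7103 and 8121 normalized counts in KO livers, against 6830, 9350 and 12098 in WT livers (log2 fold change −0.48, SE 0.16, adjusted p = 0.100). Of 12 tested genes of glutathione supply and recycling, 1 rose. Cth, the cystathionine lyase that makes cysteine, lay at 9480, 15553 and 19922 normalized counts in KO livers, against 8102, 9552 and 11729 in WT livers (log2 fold change 0.65, SE 0.16, adjusted p = 0.0389). Of the KO livers 5 were above every WT liver. Its call ended without any 1 of KO 1, KO 2, KO 4, KO 5, WT 1, WT 3, WT 4 or WT 5 (up to 0.0919), and its adjusted p was 0.0939 with the runs as a block. The other 11 did not pass. Of 17 other conjugating enzymes, 0 passed in limma, with 7 at an unadjusted p under 0.05, 0 by edgeR and 1 by DESeq2.

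Of 8 tested deconjugating enzymes, 1 fell in limma, against 2.68% of all genes tested. Arsb, a lysosomal sulfatase for glycosaminoglycans, lay at 646, 853 and 934 normalized counts in KO livers, against 899, 1091 and 1202 in WT livers (log2 fold change −0.39, SE 0.094, adjusted p = 0.0383). Of its KO livers 4 were below every WT liver, and the call ended without any 1 of KO 1, KO 4 or WT 1 to WT 5 (up to 0.0892). With the runs as a block its adjusted p was 0.171. Of 11 conjugate transporters, 1 fell in limma, again against 2.68%. Slco2b1, an uptake carrier for organic anions, fell 3.08-fold and lay at 507, 1243 and 2082 normalized counts in KO livers, against 2761, 3211 and 4286 in WT livers (log2 fold change −1.63, SE 0.32, adjusted p = 0.0165). All 6 KO livers were below all 6 WT livers, and the call held without any 1 liver. Its adjusted p was 0.0678 with the runs as a block. DESeq2 called 4 of the 11, against 9.73% of all genes tested. By DESeq2, Slco2b1 and Slco1a1 fell. Abcc3 (log2 fold change 0.63, adjusted p = 0.0118) and Slco1a4 (log2 fold change 0.51, adjusted p = 0.0384) rose by DESeq2. Slco1a1 averaged 4.92 normalized counts in KO livers and 43.5 in WT livers. It thus reached the mean of 10 through WT alone, and its test is no support for a difference.

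Of 15 genes known as targets of CAR and PXR outside the 3 families, 3 fell and 0 rose in limma. Of all genes tested 2.68% fell and 1.75% rose. The median log2 fold change of the 15 was 0.072. By edgeR 2 of the 15 passed and by DESeq2 4, against 4.1% and 9.73% of all genes tested. The DESeq2 calls include Abcc3, also 1 of the conjugate transporters, as a rise (log2 fold change 0.63, adjusted p = 0.0118). Cyp2b10, the classical CAR target of mouse liver, fell 6.98-fold. It lay at 4.95, 12.9 and 54.6 normalized counts in KO livers, against 50.5, 129 and 188 in WT livers (log2 fold change −2.80, SE 0.51, adjusted p = 0.00953). Of the KO livers 5 were below every WT liver, and the call held without any 1 liver. Aldh1a7 and Aldh1a1 encode aldehyde dehydrogenases. Aldh1a7 lay at 393, 1511 and 2006 normalized counts in KO livers, against 2503, 3358 and 4849 in WT livers (log2 fold change −1.44, SE 0.33, adjusted p = 0.0294), and Aldh1a1 lay at 1268, 4106 and 5512 normalized counts in KO livers, against 5532, 8202 and 11448 in WT livers (log2 fold change −1.19, SE 0.31, adjusted p = 0.0485). In both, all KO livers were below all WT livers. For Aldh1a7 the call ended without any 1 of KO 1, KO 4 or WT 1 to WT 5 (up to 0.0684), and for Aldh1a1 it held without KO 2, KO 5 or KO 6 alone and ended without any other liver (up to 0.0998). edgeR gave Aldh1a1 an adjusted p of 0.0532. With the runs as a block none of the 3 passed (adjusted p = 0.0671 for Cyp2b10). Since Cyp2b10 is 1 of several Cyp2b paralogs, its reads may be divided among them.

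Of 11 NRF2 targets outside the Gst family, 1 fell and 0 rose in limma, against 2.68% and 1.75% of all genes tested. Ces2g, a carboxylesterase gene, lay at 604, 1351 and 2456 normalized counts in KO livers, against 2251, 2598 and 3083 in WT livers (log2 fold change −1.12, SE 0.28, adjusted p = 0.0439). The highest KO liver, KO 6, was above the 2 lowest WT livers. edgeR did not call it (adjusted p = 0.0703), nor did limma with the runs as a block (adjusted p = 0.131), and the call held without KO 5, KO 6 or WT 6 alone and ended without any other liver (up to 0.0924). Without WT 6 and KO 2 together its adjusted p was 0.0524. Of 5 AhR targets, 0 passed in limma, with 3 at an unadjusted p under 0.05, 0 by edgeR and 3 by DESeq2. The shares of all genes tested were 4.43%, 23.4%, 4.1% and 9.73%, in that order. Cyp1a1, the standard AhR target, lay at 7.70, 19.8 and 40.2 normalized counts in KO livers, against 32.4, 54.1 and 100.1 in WT livers (log2 fold change −1.44, SE 0.40, adjusted p = 0.0574). The 15 receptors, stress factors and partners tested had 0 calls by limma and 4 at an unadjusted p under 0.05. For them edgeR made 0 calls and DESeq2 2, beside the same shares of all genes tested. Arnt, the partner of AhR, lay at 1596, 1773 and 3004 normalized counts in KO livers, against 1187, 1359 and 1569 in WT livers (log2 fold change 0.49, SE 0.14, adjusted p = 0.0583). All 6 KO livers were above all 6 WT livers in Arnt, with KO 2 far above the others, and it still missed the threshold.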

How the data were processed

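Total RNA of 12 livers was compared by genotype, 6 KO and 6 WT, as the labels give it; libraries were made with a TruSeq kit, per the labels' protocols. For the reads, the submitters' processing notes list STAR, featureCounts, FastQC and DESeq2 and, as build, mm10, without versions. The sources used here do not give the annotation, any filter or whether reads were counted by strand. The deposited signal is a normalized count per gene: reads divided by the authors' factor for each library. In each library 100% of values were whole multiples of 1 read within 0.001 reads, so whole reads were recovered. A read in an exon shared by overlapping genes can stand in several rows, so the totals given count some reads more than once. The authors' deposited comparison holds log2 fold changes, p-values and adjusted p-values per gene; only its adjusted p-values are quoted. DESeq2 run here gave a p-value within 0.001 of the deposited one for 100% of genes with both.

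Genotype was tested with limma 3.58.1 (R 4.3.3, mean-variance trend, no covariate) on log2(normalized count + 1). Of all gene rows, 13569 had the mean of 10 needed to enter the fit. P-values are two-sided and were adjusted by the method of Benjamini and Hochberg; the threshold was 0.05. The pseudocount understates the change of low genes, but a fold change here is a difference of mean log values, and where livers vary widely it can exceed that of edgeR or DESeq2. Levels are the lowest, median and highest of 6 livers, and p-values set the difference of KO and WT against the spread between these livers. Alternatives were pseudocounts of 0.5 and 10, no filter, a minimum mean of 50, equal totals, equal upper quartiles, TMM scaling, robust moderation, weights for library quality, DESeq2 1.42.0 and edgeR 4.0.16 on whole reads, a block for runs of animal numbers, the omission of WT 6 and KO 2 together and of each library, and, added after seeing the data, Ugt1a rows less their shared reads. The fitting was tested on simulated data. Positions, exons and 50-base words come from GENCODE M21 on GRCm38, and windows around start sites from RefSeq on GRCm38.p6.

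The genes, the lists and the tests were chosen with earlier results of these data known. Named genes are the members past the threshold, the 4 with the highest mean in each family, the member with the smallest p in each subfamily, and from each list the genes past the threshold and the one with the smallest p. For 1 list the gene with the smallest p is not reported here. The other members are given for completeness. Ugt2b37, the Ugt1a5 part and the genes under the limit of 10 were chosen after their values were seen. So were Abcc3, Slco1a1 and Slco1a4, which are named for their DESeq2 calls.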

Additional observations from a re-analysis of the deposited data

Results flagged for a closer look

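In 88 groups of 6 livers, the highest or lowest liver was checked for a gap to its nearest neighbour beyond Dixon's critical share of the group's range. Chance flags about 1 in 20 groups, and 7 groups were past it. In KO livers, Arnt reached 3004 normalized counts in KO 2, where the next highest liver had 1848. Gstz1 reached 27767 in KO 1, where the next had 22447. The Ugt1a5 part above the shared reads reached 269 in KO 6, where the next had 79.1. In WT livers, Gstm1 reached 42981 and Gsta2 619 in WT 4, where the next highest livers had 31720 and 242. WT 1 was low for Gsta3, with 35116 normalized counts where the next lowest liver had 54049, and for Ugt3a2, with 7142 where the next had 8534. WT 4 is the only WT liver of its animal number run, which holds 3 KO livers, so the within-run values of Gstm1 and Gsta2 rest on it. Reasons for these values were not tested.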

How the results depend on the processing

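Directions of the 13 named genes past the threshold, members and list genes together, did not turn in any of 26 alternatives, while 0 of the 13 kept the call in all of them. The alternative with reduced Ugt1a rows leaves the values of these 13 genes as they are, so it could not turn them. Members past the threshold numbered 11 by DESeq2 and 1 with the runs as a block, against 6 in the limma fit as reported, and 0 to 11 without 1 liver. Calls over all genes numbered 1350 by DESeq2, 1320 of them among the 13569 genes tested by limma, 158 with the block and 917 without WT 6 and KO 2, against 601, and 224 to 933 without 1 liver. For Ugt genes the count was 0 with the block and 0 to 3 without 1 liver. For Sult genes it was 1 without a filter, with robust moderation, with the block and without WT 6 and KO 2, 4 by DESeq2, and 0 to 4 without 1 liver. For Gst genes it was 1 with robust moderation and by edgeR, 4 by DESeq2, 0 with the block, and 0 to 4 without 1 liver. The causes were not tested.

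Log2 fold changes close to 0 turned sign. Ugt1a6b was −0.020 with equal totals, −0.017 with library weights and −0.040 less its shared reads. Ugt1a6a was 0.0037 with upper quartiles, 0.011 by edgeR, 0.0077 by DESeq2, 0.098 with the block and 0.053 without WT 6 and KO 2. Ugt1a5, as deposited, was 0.0048 by edgeR, 0.0014 by DESeq2, 0.097 with the block and 0.047 without WT 6 and KO 2. Sult2a1 was 0.0081 with library weights, 0.080 with the block and 0.12 without WT 6 and KO 2. Gsta3 was 0.047 with the block and 0.018 without WT 6 and KO 2, and Ugt3a2 was 0.011 with the block. Without 1 liver the ranges were −0.026 to 0.11 for Ugt1a1, −0.067 to 0.071 for Ugt1a6b, −0.078 to 0.062 for Ugt1a6a, −0.087 to 0.057 for Ugt1a5, −0.14 to 0.055 for Sult2a1, −0.25 to 0.0046 for Gsta3 and −0.012 to 0.089 for Gstz1. The median log2 fold change of all genes lay within 0.021 of 0 in the fit as reported and in every alternative. No paired analysis was possible because the labels give each liver its own animal number and no number shared between the groups; the runs of animal numbers are no pairing. Depth limits the genes under 10 normalized counts, which were not tested.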

Other observations

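Of the 58 gene rows whose symbol belongs to these families, 11 had a mean under 10 normalized counts and were not tested. Sult4a1, a sulfotransferase gene known from brain, was listed at 0 in all 6 KO livers, against 0 to 1.95 normalized counts in WT livers, where 1 liver was at 0. Sult2a7 lay at 0, 1.41 and 4.81 normalized counts in KO livers (lowest, median and highest), against 0.972, 3.19 and 8.92 in WT livers. Gstt4 had 0 to 3.77 normalized counts in KO livers and was listed at 0 in all 6 WT livers. Gsto2 lay at 2.83, 4.35 and 6.80 normalized counts in KO livers, against 0, 4.79 and 6.67 in WT livers. Gsta1 reached 5.78 in KO livers and 19.1 in WT livers, with medians of 1.98 and 1.95. Sult2b1 reached 4.57 in KO livers and 2.35 in WT livers. Sult6b1 was above 0 in 1 KO liver alone, and Ugt2a1 and Ugt2a2 in 1 WT liver alone.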
